A study of Drosophila melanogaster with 2 samples.

Results

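Besides the chromosome arms, the dm3 build of the Drosophila genome holds sequences that lie in or near the heterochromatin of known arms (named with Het) and scaffolds that could not be placed on any chromosome (U, and the lower-quality scaffolds of Uextra). GAF-enriched regions of untreated S2 cells that the authors called on 3LHet, 3RHet, U and Uextra are described here. They were chosen by the name of the sequence alone, and each individual peak on these sequences was joined to the enriched region that it overlapped by at least 1 bp. This gave 193 of the 4604 enriched regions in the list (4.19%) and 246 of its 12582 individual peaks (1.96%). Uextra held 133 of the regions and 153 of the peaks, U held 30 and 40, 3RHet held 18 and 39, and 3LHet held 12 and 14. The 11 regions on 2RHet and the 15 on the mitochondrial sequence M belong neither to these 193 nor to the arm regions used for comparison. Every one of the 246 peaks fell in a called region, and every region held at least 1 peak.

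GAF, or GAGA factor, is a zinc-finger protein that binds GA-rich DNA at promoters and other regulatory elements, where it is known for keeping chromatin accessible. Its gene, Trithorax-like, was also found as a modifier of position-effect variegation, the silencing of genes placed next to heterochromatin. In dividing embryonic cells the protein has been seen on GA-rich satellite repeats of the heterochromatin. Heterochromatic and unplaced scaffolds are rich in transposable elements and satellites, so that many short sequencing tags have no single best position on them. The authors' list names its input as unique alignments, and how these were selected is not given in the sources used here.

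The study covers S2-DRSC cells, a line of cultured Drosophila cells, depleted of GAF by 5 days of RNAi with 10 μg/ml GAF dsRNA, and the same line untreated. GAF was immunoprecipitated with a GAF antibody in both, in 2 replicates each. The lists used here are of the untreated cells, which the notes on the files call mock-RNAi, and the GAF-RNAi sample was not analysed here. Replicates were pooled ahead of the calling, which leaves no replicate error for any value below. The control was a pre-immune IP by the file notes and the methods, whereas the text on the series gives non-specific IgG. The combined ChIP held 11288498 tags of 46 bp, of which 6645644 (58.9%) remained after MACS allowed at most 3 tags at any position and strand. The control held 5252536 tags, of which 5181809 (98.7%) remained with a limit of 2. Regions of 1 pooled list are not replicates. The heterochromatic and unplaced regions are therefore set beside the 4385 regions on the arms 2L, 2R, 3L, 3R, 4 and X without a test, and the 95% intervals given (Wilson for shares, order statistics for medians) cover counting error only.

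GAF regions on 3LHet, 3RHet, U and Uextra, pooled, had lower median heights, fold enrichments and widths than those on the arms. Their median summit height, the number of overlapping tags at the highest point of a region, was 51 tags (95% interval 44 to 65), against 125 tags (116 to 132) on the arms. The median fold enrichment, the summit height over the local expectation from the control IP, was 6.12 (5.80 to 6.46), against 16.67 (15.76 to 17.98) on the arms. Their median width was 398 bp (362 to 436), against 1052 bp (1031 to 1082) on the arms. Median widths on 2RHet, M and chromosome 4 were 542, 445 and 644 bp. Together the regions on the 4 sequences held 37742 tags, 1.28% of the tags in all regions, although they made up 4.19% of the regions. A fold enrichment of at least 10 was listed for 30 of them (15.5%), against 61% of all regions in the list.

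The 4 sequences differed among themselves. On 3LHet the median fold enrichment was 12.67 and 7 of the 12 regions had a fold of at least 10. On U the median was 8.24, with 11 of 30 regions at or above 10. On 3RHet it was 5.80, with 2 of 18, and on Uextra 6.01, with 10 of 133. The 7 regions on 3LHet had folds from 10.20 to 56.56 and summits of 60 to 413 tags, and the other 5 had folds of at most 5.95 and summits of at most 35 tags. On U and Uextra the folds below 10 reached 9.61 and 9.92. With 12 regions, the interval of the 3LHet median ran from 4.76 to 19.90 and covered the medians of the 3 other sequences. Median summit heights lay closer together, at 74.5 tags on 3LHet, 43.5 on 3RHet, 51.5 on U and 52 on Uextra. The small chromosome 4, which is largely heterochromatic, had a median fold of 6.46 and a median height of 41 tags over 31 regions, whereas the 5 larger arms had median folds from 15.21 on X to 18.93 on 3R.

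**Figure D1:**
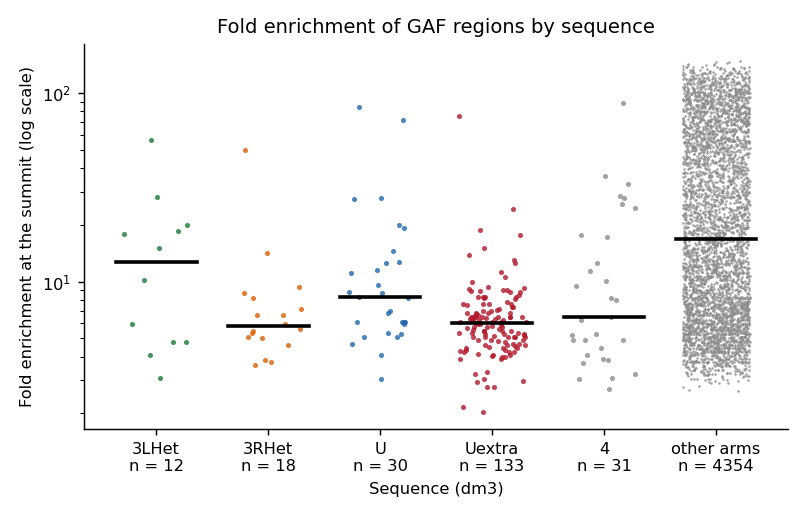
Fold enrichment at the summit (log axis) of every GAF region on 3LHet, 3RHet, U, Uextra, chromosome 4 and the 5 other arms, with 1 point a region and the median as a bar. Medians on the 4 heterochromatic and unplaced sequences run from 5.80 to 12.67, and single regions on each of them reach 50 to 84.86.

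Each of the 4 sequences nevertheless held a strongly enriched GAF region. The largest fold enrichment was on U from 7457631 to 7458296. There 499 tags overlapped at the summit over an expectation of 5.88 tags, a fold of 84.86. That expectation is the genome-wide level, which is set by the ChIP depth and is not a count in the control. The region on Uextra from 438942 to 439841 reached 447 tags and a fold of 76.02. A further region on U, from 5630427 to 5631648, reached 421 tags and a fold of 71.59. On 3LHet the leading region spanned 715057 to 716243, with 413 tags over an expected 7.30 and a fold of 56.56. On 3RHet it spanned 2373943 to 2374812, with 294 tags and a fold of 50. These 5 (2.59% of the 193) were the only regions on the 4 sequences with a p-value listed at 3100 on the scale of 10 times -log10. On the arms 1406 regions (32.1%) shared this value. The FDR of the 5 regions, the empirical false discovery rate from exchanging ChIP and control, was listed as 0.

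The next 5 by fold enrichment were lower but stood over similarly low expectations. On 3LHet the region from 247914 to 248495 had 165 tags and a fold of 28.06. On U the region from 1096087 to 1096900 had 163 tags and a fold of 27.72, and the region from 1185710 to 1186408 had 258 tags over an expected 9.38, a fold of 27.52. They were followed by a region of 318 bp on Uextra from 2678443 to 2678760, with 143 tags and a fold of 24.32, and by a region of 272 bp on U from 6904802 to 6905073, with 118 tags and a fold of 20.07. Of the 10 regions, 9 had an expectation of at most 7.30 tags. This is near the genome-wide level of 5.88 tags that filtered ChIP tags, fragment length (146 bp) and genome size give. The largest folds therefore came from regions where the expectation was at or close to that level, so that the fold largely follows the summit height. No gene was looked up for any of these regions.

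The highest GAF summits lay elsewhere, over a high control. On Uextra from 7039298 to 7039944, 753 tags overlapped at the summit, but the control led to 248.5 tags, and the fold enrichment was 3.03 with an FDR of 15.07%. The region on Uextra from 27346640 to 27347402 had 641 tags over an expected 232.2, a fold of 2.76, and that from 2684229 to 2684963 had 616 tags over 207.4, a fold of 2.97. Their FDRs were 0.600% and 26.4%. The limit on duplicate tags allows at most 876 tags at a summit. On the arms, no region had an expectation above 24.46 tags. On the heterochromatic and unplaced sequences 29 of 193 regions (15.0%) did, 26 of them on Uextra, 2 on 3RHet and 1 on U.

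In these 29 regions summits ran from 109 to 753 tags (median 335) over expectations from 27.0 to 248.5 tags (median 64.2). Their fold enrichments ran from 2.04 to 9.61, with a median of 4.54. An FDR at or below 5% was listed for 17 of the 29, against 62.8% of all regions in the list. On the arms it was listed for 1734 of the 1736 regions with summits of at least 200 tags. An FDR above 50% was listed for 4 of the 29, against 15.4% of all regions. The weakest 2 by fold, on Uextra from 19603804 to 19604155 and from 17025955 to 17026325, had summits of 423 and 427 tags and folds of 2.04 and 2.16, and their FDR was listed as 100%. The 4 with an FDR listed as 0 had summits of 343 to 543 tags and folds of 3.63 to 6.52. The region on U among the 29, from 9151112 to 9151646, had 296 tags over an expected 30.8, a fold of 9.61 and an FDR of 0.100%. These regions were picked out after their values were seen. These few regions held 20984 tags, 55.6% of all tags in regions on the 4 sequences. At their summits the ChIP exceeded the expectation by 82.0 to 504.5 tags (median 237.4). The excess and the fold thus order these regions differently, since the summit with the largest excess, 504.5 tags, had a fold of 3.03.

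A control above the genome-wide level was not in itself more frequent on these sequences than on the arms pooled. It was found at 90 of 193 regions (46.6%, 95% interval 39.7 to 53.7%), against 64.3% (62.8 to 65.7%) on the arms. The order turned with the level chosen, since an expectation above 1.5 times that level was found at 32.1% of them, against 21.3% on the arms. At 5 times the level it was 27 regions (14.0%), against 0 of 4385 on the arms, which allows a share of up to 0.0684% when 3 counts are taken as the limit of a count of 0 (the Wilson upper limit is 0.0875%). Without Uextra the share above the genome-wide level was 31.7%. Among the arms this share differed widely, at 12.3% on X, 22.6% on chromosome 4, 64.2% on 3L, 84.1% on 3R and 86.2% on 2L. The pooled share of the arms thus lay near that of 3L, but away from those of the other arms listed here.

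Set side by side at like summit heights, the regions on the 4 sequences and those on the arms had folds close together when low and far apart when high. Among summits from 25 to under 50 tags the median fold was 5.78 in 88 heterochromatic and unplaced regions (95% interval 5.32 to 6.12). In 950 arm regions it was 5.26 (5.10 to 5.30). Median expectations in this class were 5.88 and 6.18 tags, near the genome-wide level, so that fold there largely follows height in both sets. From 50 to under 100 tags the median fold was 8.73 in 44 (6.64 to 9.28) and 9.25 in 894 on the arms (9.01 to 9.49). From 100 to under 200 tags it was 9.06 in 25 regions (95% interval 6.31 to 18.60) and 19.22 in 683 on the arms (18.69 to 19.63). At 200 tags or more it was 5.50 in 29 regions (3.83 to 7.61) and 64.58 in 1736 on the arms (62.75 to 67.51). Of these 29 high regions 23 had a fold under 10, against 1 of 1736 on the arms, and the same number, 23, had an expectation above the highest on the arms. The value at 200 tags or more rests on Uextra, which held 21 of the 29. Without it the median fold of the other 8 was 38.76 (95% interval 3.63 to 84.86), and 3 of the 8 had a fold under 10.

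**Figure D2:**
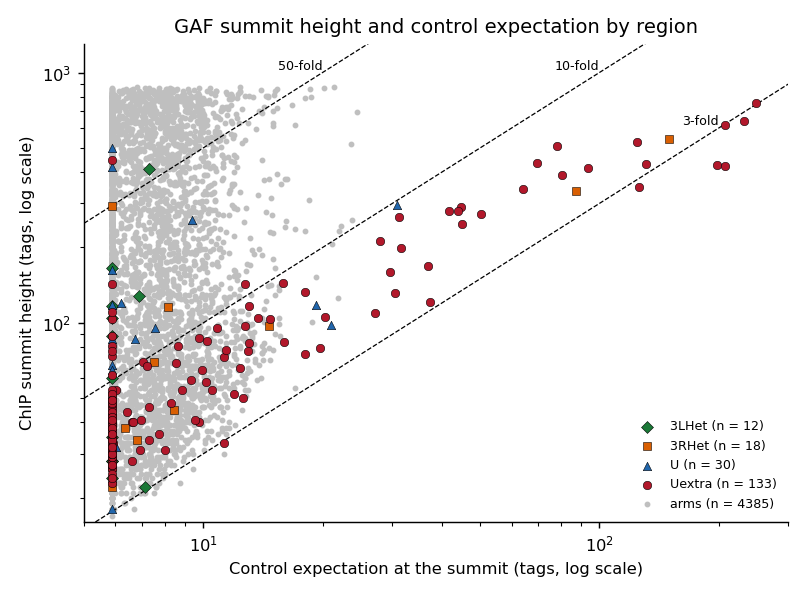
Summit height in the ChIP against the expectation from the control IP (both in tags, log axes), 1 point a region, with dashed lines at folds of 3, 10 and 50. The 29 regions to the right of every arm region (expectations of 27.0 to 248.5 tags) lie below the line of 10, whereas 6 regions of at least 200 tags stand over expectations of 5.88 to 9.38 tags.

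Across regions, summit height and fold enrichment were related with a Spearman's rho of 0.384 on the 4 sequences (n = 193) and 0.973 on the arms (n = 4385). Height and expectation were related with a rho of 0.497 on the 4 sequences and 0.064 on the arms. With the 29 regions of highest control left out, rho of height and fold was 0.797 (n = 164), and without Uextra it was 0.751 (n = 60). All regions share 1 ChIP, 1 control and their depths, and fold is itself computed from height, so these values are descriptions.

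By the authors' FDR, the calls on these sequences were weaker than in the list as a whole. An FDR at or below 5% was listed for 57 of 193 regions (29.5%, 95% interval 23.5 to 36.3%), against 62.8% of all regions in the list. An FDR at or below 1% was listed for 35 (18.1%), against 52.9% of all regions, and an FDR of 0 for 13 (6.74%), against 42.6%. An FDR above 50% was listed for 58 (30.1%, 95% interval 24.0 to 36.9%), against 15.4% of all regions. Weak calls were not particular to these sequences. On chromosome 4, 35.5% of 31 regions were at or below 5% and 48.4% above 50%. On 2RHet the shares were 18.2% and 63.6% of 11 regions. By sequence, an FDR at or below 5% was listed for 6 of 12 regions on 3LHet, 5 of 18 on 3RHet, 11 of 30 on U and 35 of 133 on Uextra. Among regions of 1000 bp or less the difference was smaller, with 28.0% of 186 heterochromatic and unplaced regions and 37.4% of 2048 arm regions at or below 5%, and 30.6% and 28.2% above 50%. Their median fold in that class was 6.12 (95% interval 5.80 to 6.46), against 7.65 (7.44 to 7.94) on the arms.

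**Figure D3:**
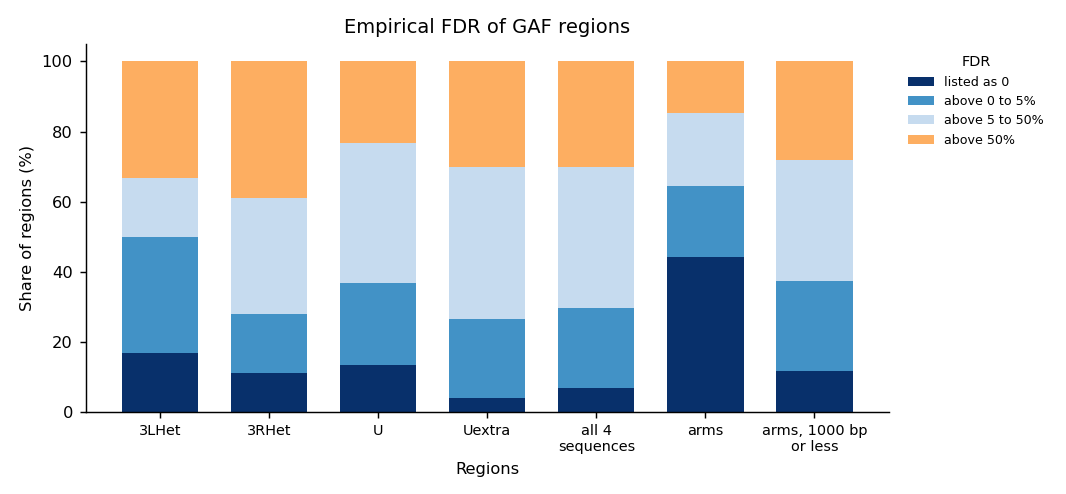
Share of GAF regions in 4 classes of the authors' empirical FDR, for each of the heterochromatic and unplaced sequences, the 4 together, the arms, and arm regions of 1000 bp or less. An FDR at or below 5% takes 29.5% of the 193 regions, and 37.4% of the arm regions of 1000 bp or less.

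Within narrower classes of width the order was the other way for part of the range. From 300 to under 500 bp, 22 of 82 regions on the 4 sequences (26.8%, 95% interval 18.4 to 37.3%) had an FDR at or below 5%, against 8 of 122 on the arms (6.56%, 3.36 to 12.4%), and the median heights were 47 and 31 tags. From 500 to under 800 bp these shares were 40.0% of 45 (27.0 to 54.5%) and 22.1% of 1083 (19.7 to 24.6%), with median heights of 81 and 46 tags. From 800 to under 1200 bp they were 63.6% of 11 and 66.5% of 1360. Under 300 bp they were 7 of 51 regions (13.7%), against 2 of 8 on the arms.

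At the FDR limit of 5%, which is a convention and not a property of the regions, the 3 regions just inside all lay on Uextra. They spanned 1542103 to 1542749 (49 tags, a fold of 8.33 and an FDR of 4.64%), 14301877 to 14302173 (159 tags, 5.37 and 4.67%) and 7493935 to 7494242 (87 tags, 8.94 and 4.69%). Just outside were a region on Uextra from 6346319 to 6346836 (105 tags, 7.64 and 5.13%), a region on 3RHet from 791445 to 791797 (335 tags, 3.83 and 5.18%) and a region on Uextra from 13674342 to 13674700 (83 tags, 6.37 and 5.36%). Summits on both sides of the limit thus ran over similar heights, apart from the 3RHet region.

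The narrow regions were made of tags that nearly all met at the summit. The median share of a region's tags that overlapped its summit was 81.6% on the 4 sequences, against 49.4% on the arms. In 43 regions (22.3%) every tag did, 35 of them on Uextra and 8 on U, against 8 regions (0.182%) on the arms. It was also found in 2 of 11 regions on 2RHet and 4 of 15 on M, so it was not particular to the 4 sequences. This followed the width, since all 43 and all 8 were no wider than 292 bp, which is 2 fragment lengths, and 44 regions on the 4 sequences but 8 on the arms were that narrow. The 43 regions had summits of 27 to 121 tags (median 41), and 5 of them had an FDR at or below 5%. The summit height over the mean coverage of the region had a median of 2.05 on the 4 sequences, against 3.56 on the arms, and by width the medians were 1.86 and 1.91 under 300 bp, 2.09 and 2.13 from 300 to under 500 bp, and 2.63 and 2.76 from 500 to under 800 bp. They lay further apart in wider regions, with 3.06 in 11 regions on the 4 sequences and 3.47 on the arms from 800 to under 1200 bp, and 2.47 in 4 regions and 4.79 on the arms at 1200 bp or more.

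**Figure D4:**
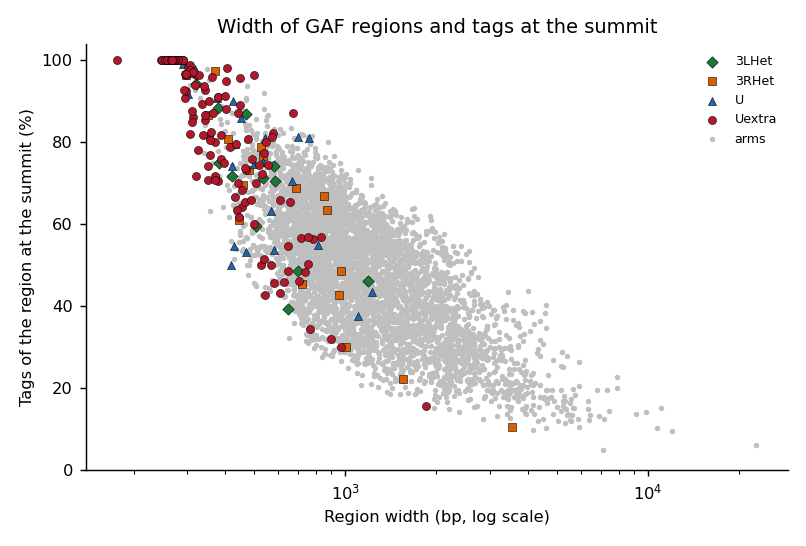
Share of a region's tags that overlap its summit (percent) against the width of the region (bp, log axis), 1 point a region, with the arms in grey. Regions of the heterochromatic and unplaced sequences have a median width of 398 bp and a median share of 81.6%. At 100% there are 43 of them, none wider than 291 bp.

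Most of these regions were single peaks. Of the 193 regions, 38 were split into 2 or more individual peaks (19.7%, 95% interval 14.7 to 25.9%), against 78.3% (77.0 to 79.5%) on the arms. Such a split was also found in 3 of 11 regions on 2RHet, 4 of 15 on M and 58.1% of 31 on chromosome 4. The share was 12 of 18 regions on 3RHet, 9 of 30 on U, 2 of 12 on 3LHet and 15 of 133 on Uextra. The 246 individual peaks had a median height of 44.5 tags, from 5 to 753, and 63 of them had at least 100 tags. The highest individual peak of a region differed from the region's own summit by at most 15 tags.

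The widest of these regions, on 3RHet from 787741 to 791300, was split into 8 individual peaks of 161 to 543 tags. It held 5143 tags in 3560 bp, the most of any region on the 4 sequences. At its summit 543 tags stood over an expected 149.6, so that its fold was 3.63, with an FDR listed as 0. The region of 353 bp that follows after a gap of 144 bp had 335 tags over an expected 87.5. These 2 are the regions of 3RHet whose control exceeded that of every arm region. Among the 9 individual peaks of both regions the first had 434 tags, the next 161, and the highest, the eighth, 543. The next widest were 1847 bp on Uextra from 271729 to 273575, with 33 tags at the summit, a fold of 2.93 and an FDR of 57.3%, and 1557 bp on 3RHet from 2025313 to 2026869, with 70 tags, a fold of 9.35 and an FDR of 0.090%. They were split into 5 and 4 individual peaks, and no other region on the 4 sequences had more than 3.

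A different arrangement was found on U, where 9 regions lay within 12939 bp, from 5288352 to 5301290. Gaps between neighbours ran from 272 to 4282 bp. Summits ran from 30 to 120 tags (median 52) and fold enrichments from 5.10 to 19.33. At 7 of the 9 the expectation stood at the genome-wide level, and 4 of the 9 had an FDR at or below 5%. The highest, from 5299309 to 5299851, had 120 tags and a fold of 19.33 with an FDR of 0.570%, and its neighbour from 5300291 to 5300712 had 95 tags and a fold of 12.59.

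**Figure D5:**
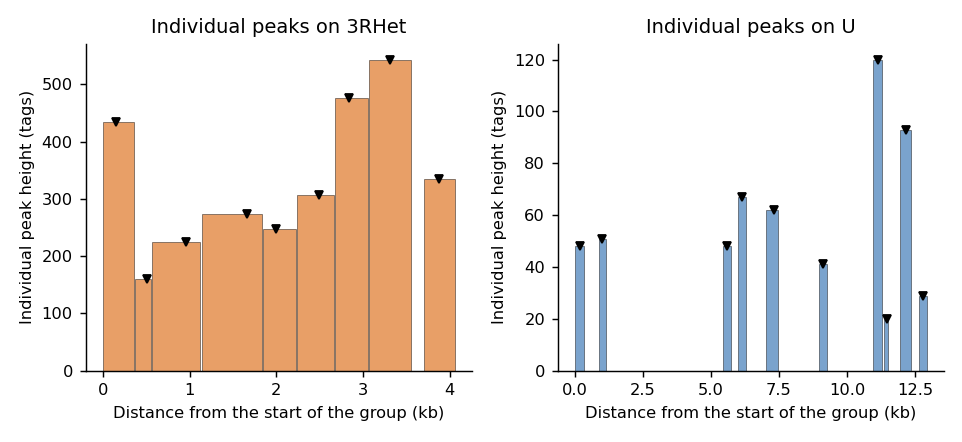
Height (tags) of the individual peaks, drawn over their width, in the groups of neighbouring regions on 3RHet (left) and U (right), against the distance from the start of the group (kb), with triangles at the summits. The 9 peaks on 3RHet reach 161 to 543 tags and nearly touch, whereas the peaks on U reach 120 tags and are set apart by gaps of up to 4282 bp.

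Such groups were the exception. Another called region within 5 kb was found for 35 of 193 regions (18.1%, 95% interval 13.3 to 24.2%), against 61.0% (59.6 to 62.5%) on the arms. Such a neighbour was found for 0 of 11 regions on 2RHet, 51.6% of 31 on chromosome 4 and 15 of 15 on M. The 35 regions formed 13 groups, 10 of them pairs, 2 of 3 regions and the 9 regions on U. By sequence the share was 11 of 30 regions on U, 6 of 18 on 3RHet, 2 of 12 on 3LHet and 16 of 133 on Uextra. U and Uextra are strings of separate scaffolds whose borders were not used here, so that a distance on them need not be a distance in the genome.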

How the data were processed

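GAF ChIP-seq lists of untreated S2 cells were used. Per the submitters' processing notes the tools included BWA and the build was dm3. Regions were called by the authors with MACS 1.4.0beta at a p-value limit of 1e-04 and split with the Subpeaks tool. The tag count of a region is a whole-number count deposited without normalization. Summit heights were deposited as a signal in overlapping tags, and fold enrichment as the authors' ratio to the local control. The deposited p-values are 10 times -log10, and the FDR is the authors' percent from exchanging ChIP and control.

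The control expectation was computed as height over fold, and taken as above the genome-wide level of 5.88 tags when over 1.01 times it. That level is set by the ChIP depth, so an expectation at it is not a measured control. Positions are counted from 1. Values were computed in Python 3.11.15 (scipy 1.17.1, pandas 2.3.3, numpy 2.4.6), and scripts were tested on simulated data. Members, named regions and tests were chosen with earlier results of these data known. Named regions are, on each sequence, the one of largest fold and the one of highest summit, the 10 of largest fold, the 3 widest, the 3 with most individual peaks, the 3 of largest control expectation, and 3 on either side of an FDR of 5%. The group of 9 regions on U was chosen after its values were seen. No dm3 genome was used, so no sequence is shown, and no region was assigned to a gene.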

Additional observations from a re-analysis of the deposited data

How the results depend on the processing

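Of 59 alternatives over 12 results, 24 left the value within its interval (within 1.5 times for counts), 34 moved it and 1 turned the order against the arms; 3 were added after seeing the data. The cause was not tested, apart from filters that leave fewer regions. The 193 regions became 119 at a p-value of 1e-10, 57 and 35 at FDRs of 5% and 1%, and 30 at a fold of 10, and the 246 individual peaks became 156, 82, 57 and 42. The share with an FDR at or below 5% was 56.1% for summits of at least 50 tags (arms 84.6%). It was 36.7% without Uextra and 36.7% on 3LHet and 3RHet (arms without a filter 64.3%). The share with an FDR above 50% was 7.14% for summits of at least 50 tags (arms 1.75%). At an FDR of 5% the median fold was 9.35 (arms 38.77), height 132 tags (arms 286) and width 470 bp (arms 1359.5). At this FDR the control was above the genome-wide level at 63.2% (arms 65.4%). There were 2 or more peaks in 26.3% (arms 85.2%) and a neighbour within 5 kb for 7.02% (arms 49.4%). Geometric means were a fold of 6.88 (arms 18.8) and 68.8 tags (arms 137.6). Without Uextra, fold was 6.88, width 477 bp, the summit over mean coverage 2.34, the control above its level at 31.7%, 2 or more peaks in 38.3%, a neighbour for 31.7%, and the median fold at 200 tags or more 38.76 (added). On 3LHet and 3RHet, width was 534.5 bp, the summit over mean coverage 2.39, the control above its level at 36.7%, 2 or more peaks in 46.7% and a neighbour for 26.7%. A control expectation over 1.5 times the genome-wide level was found at 32.1%, against 21.3% on the arms, the reverse of 46.6% against 64.3%. Neighbours within 1 kb and 10 kb were found for 8.29% and 28.5% (arms 31.6% and 73.9%). No paired analysis was possible because only 1 pooled list was used, which also kept any replicate from being left out.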

Other observations

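The regions on Uextra were unevenly spread along it. From 28000000 on, the last stretch held 36 of its 133 regions (27.1%), whereas each of the 28 stretches of 1 Mb before it held 0 to 11, with a median of 3. The 36 regions had summits of 28 to 168 tags (median 47) and a median fold enrichment of 5.95, against medians of 65 tags and 6.05 for the other 97. An FDR at or below 5% was listed for 2 of the 36 (5.56%), against 33 of the 97 (34.0%), and 2 of the 36 had a control expectation above that of every arm region. These stretches were chosen after the positions had been seen, and the spread was not tested.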
